A study of Mus musculus with 18 samples.

Results

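Tbx5 binding sites of the mouse forelimb bud that lay near genes but had no Pitx1 site beside them in the hindlimb bud were described. A site is the summit, or highest point, of a peak in the deposited Tbx5 list. It was included when no summit of the full Pitx1 list lay within 1000 bp and when it lay inside, or within 100 kb of, a protein-coding gene on genome build mm10. Of 10273 Tbx5 summits, 4614 had no Pitx1 summit within 1000 bp, and 3622 of these were near genes. The other 992 lay in gene deserts. The remaining 4296 near-gene Tbx5 summits, with Pitx1 at most 1000 bp away, serve as the comparison. The sites were chosen by the summit positions in both lists, so their lack of a Pitx1 neighbour is not a result.

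Chromatin was pulled down from limb buds of wild type CD1 embryos, an outbred strain. The study addressed how forelimbs and hindlimbs come to differ. Tbx5 was mapped in forelimbs at e10.5 (antibody NP1723, homemade) and Pitx1 in hindlimbs at e11.5 (antibody 960A, homemade), with 1 sample each. The peak names of the Tbx5 list carry the tag rep2, and whether it stands for a second replicate is not stated. Limb, stage, factor and antibody therefore differ together and cannot be told apart, and no value has a replicate error or a test. Intervals below are exact Clopper-Pearson 95% intervals, which cover the counting of summits only. The full Pitx1 list has 54941 summits, and the absence of a listed summit is not a measured absence of Pitx1. Pitx1 peaks are numbered in genome order, and 77.8% of the numbers are present in the deposited list. For 60.6% (59.0 to 62.2) of the 3619 sites with a Pitx1 summit on either side, those neighbours carried consecutive numbers, so that no numbered call is missing between them. For the rest, at least 1 numbered Pitx1 call in that stretch is not in the list used here.

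Tbx5 is a T-box transcription factor. It is needed for the forelimb bud to form, where it activates Fgf10, and it acts in the heart as well. T-box proteins recognise a short DNA core with the letters GGTGTG. Pitx1 is a homeodomain factor of the bicoid type made in the hindlimb bud and not in the forelimb bud, and factors of that type bind a TAATCC core. Factors of this kind often bind enhancers far from the genes they control, so the nearest gene is a label of position and not a known target.

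Sequence was at hand for promoter windows, which run from 250 bases before to 50 bases after a gene start (RefSeq, GRCm38.p6, the assembly that mm10 represents). Of the 3622 sites, 89 fell inside a window of a protein-coding gene. Of these, 72 lay before the start, as do 250 of the 300 bases of each window. The stretches below each hold their summit, end before the gene start and read 5′ to 3′ on the strand of the gene. The first 5 belong to the highest-scoring sites whose printed stretch holds the T-box core, and they were chosen after their values were seen. A core close to the summit therefore follows from how these 5 were chosen. The last pair belongs to the strongest sites with no such core in the window. Capitals mark GGTGTG or its reverse complement CACACC.
Pcnp (chr16:56029759-56029858, minus strand): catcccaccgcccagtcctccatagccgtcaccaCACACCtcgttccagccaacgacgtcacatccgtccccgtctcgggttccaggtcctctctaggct
Fmn1 (chr2:113327604-113327703, plus strand): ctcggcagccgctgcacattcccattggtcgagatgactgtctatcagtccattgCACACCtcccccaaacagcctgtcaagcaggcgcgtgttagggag
Limk2 (chr11:3371405-3371504, minus strand): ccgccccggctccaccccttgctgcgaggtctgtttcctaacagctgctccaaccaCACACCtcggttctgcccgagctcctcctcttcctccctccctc
Edrf1 (chr7:133637527-133637626, plus strand): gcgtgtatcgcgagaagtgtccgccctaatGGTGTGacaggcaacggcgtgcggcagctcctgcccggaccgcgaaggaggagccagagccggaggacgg
Dtd1 (chr2:144599845-144599944, plus strand): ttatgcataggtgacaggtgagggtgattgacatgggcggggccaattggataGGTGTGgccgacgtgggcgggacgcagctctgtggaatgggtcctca
Azi2 (chr9:118040297-118040396, plus strand): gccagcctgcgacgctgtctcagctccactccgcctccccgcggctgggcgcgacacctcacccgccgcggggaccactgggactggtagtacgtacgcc
Pcyt1a (chr16:32430821-32430920, plus strand): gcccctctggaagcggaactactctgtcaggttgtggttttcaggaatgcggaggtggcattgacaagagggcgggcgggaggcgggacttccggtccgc

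The site at Pcnp, which encodes a small nuclear protein, was the strongest of all 3622. Its score was 366 and its summit lay 91 bp before the start, 13.5 bp from the centre of the core. The scores in this list are read as the −log10 of the q-value of the peak. At Fmn1, the formin gene of the limb deformity locus, the summit scored 17.8 and lay 82 bp before the start, 7.5 bp from the core. The nearest Pitx1 summit was 70223 bp away. The sites at Limk2, which encodes a kinase of the actin skeleton, at Edrf1 and at Dtd1 scored 16.2, 11.002 and 10.3, with the core 22.5, 17.5 and 5.5 bp from the summit. The site at the start of Azi2 scored 107 and the site at Pcyt1a, which encodes an enzyme of phosphatidylcholine synthesis, scored 77.9, with no match to the core in either window. No match says only that these letters are not in the window.

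Of the 100 promoter windows that held such a site, 23 (23.0%, interval 15.2 to 32.5) contained GGTGTG on either strand. Of all 21263 windows of protein-coding genes 18.4% did, and of the 214 windows with a Tbx5 summit near Pitx1 17.8% (12.9 to 23.5) did. The intervals of both Tbx5 groups include the share of all windows. They count each window as separate, although some windows hold the same site and overlap in sequence. Over single sites, 22 of the 89 had the core in their window, and in 12 of them it was within 25 bp of the summit. TAATCC, the Pitx1 core, was present in 1 of the 100 windows (1.00%, 0.0253 to 5.45), in 9 of the 214 (4.21%, 1.94 to 7.83) and in 6.42% of all windows. Both Tbx5 groups were chosen by Pitx1 summits, so their TAATCC shares are not independent of that choice. The windows differed in base composition as well. The median GC content was 65.2% for windows with a site lacking Pitx1, 61.3% for those with a Tbx5 summit near Pitx1 and 56.3% for all windows, and its part in the motif shares was not tested.

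Sites without Pitx1 had lower scores than the near-gene Tbx5 sites beside Pitx1. The median was 7.02 (quartiles 4.67 and 13.2) against 9.62 (5.23 and 24.6). The ratio of the shares was larger at higher scores. Scores of at least 100 were reached by 58 of 3622 sites, or 1.60% (1.22 to 2.07), against 224 of 4296, or 5.21% (4.57 to 5.92), and scores of at least 20 by 15.7% (14.5 to 16.9) against 29.6% (28.2 to 31.0). The desert sites without Pitx1 had the same median of 7.02, with quartiles of 4.67 and 13.2 as well. When the whole Tbx5 list was cut into 5 groups of equal size by score, the share of near-gene summits without Pitx1 was 55.2%, 55.1%, 47.8%, 40.6% and 29.2% from the weakest to the strongest group. Among the 100 strongest Tbx5 summits of the whole list, desert summits included, 14 were near-gene sites without Pitx1 (14.0%, 7.87 to 22.4). Over the whole list, such sites were 3622 of 10273.

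**Figure D1:**
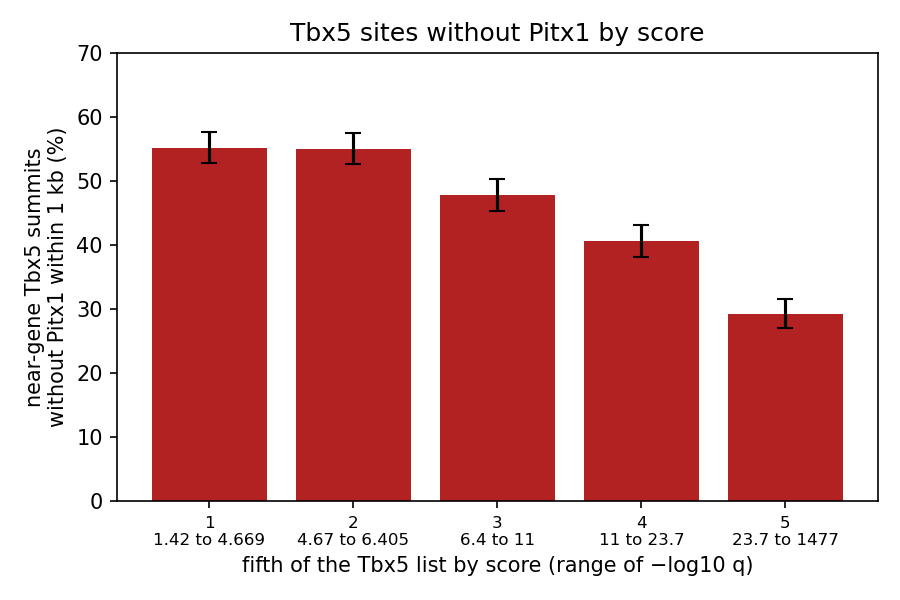
Share of near-gene Tbx5 summits without a Pitx1 summit within 1 kb (vertical axis, %) in 5 groups of the Tbx5 list ordered by score (horizontal axis, range of −log10 q). Bars are shares and whiskers exact 95% intervals; the share is 55.2% in the weakest group and 29.2% in the strongest.

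The threshold of 1000 bp cuts through a continuous range of distances. The 232 sites just inside it, with a Pitx1 summit over 1000 and up to 1500 bp away, had a median score of 8.62, and the 494 near-gene Tbx5 summits just outside it, at 500 to 1000 bp, had a median of 7.64. At the gene threshold, the 113 sites 80 to 100 kb from a gene had a median of 7.02 and the 112 sites at 100 to 120 kb a median of 6.71. The distance from the 3622 sites to the nearest listed Pitx1 summit had a median of 11969 bp (quartiles 4472 and 28558). By the rule all these distances are over 1000 bp, and no distance for other positions of the genome is given beside them. Within 2 kb lay 389 of them (10.7%), and 437 (12.1%) were over 50 kb away. The median Tbx5 score was 7.64 for the 389 and 5.81 for the 437. Where a Pitx1 summit lay within 10 kb, as for 1630 sites, its own score had a median of 7.67.

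The 15 strongest sites had scores from 199 to 366, and 9 of them lay inside genes and 6 outside. After Pcnp came a site with a score of 348 at chromosome 2 position 51582765, 44.7 kb outside the taste receptor gene Tas2r134. Rdh10, which encodes the retinol dehydrogenase that starts retinoic acid synthesis in the embryo, held a site with a score of 317 at chromosome 1 position 16127361. That summit was 5.19 kb from an end of the gene, and the nearest Pitx1 summit, 11678 bp away, scored only 2.89. Dgkz, which encodes a diacylglycerol kinase, held a site with a score of 315 (chromosome 2 position 91963960).

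Col5a2, a fibrillar collagen gene, held a site with a score of 218 at chromosome 1 position 45460980, 42.3 kb from its nearer end and 41852 bp from Pitx1, the longest such distance among the 15. Igf1r, the receptor for insulin-like growth factors, held a site with a score of 215 (chromosome 7 position 67962797), 10.54 kb from a gene end. Other strong sites were inside Mctp1 (score 307), Galnt10 (score 284), Ccser1 (score 277), Myrf (score 236) and Hmcn1 (score 199). Outside genes they were 46.0 kb from Gm38821 (score 311), 15.01 kb from Rab3ip (score 227) and 3.13 kb from Slc44a5 (score 211). For 3 of the 15 a Pitx1 summit lay within 2 kb. It was 1206 bp away at Ccser1, where it scored 259, 1215 bp away at Myrf (Pitx1 score 8.90) and 1477 bp away at Tbx3 (Pitx1 score 18.9).

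The site at Tbx3, a T-box gene of the limb margins and the neighbour of Tbx5, had a score of 223 with its summit at 119612744 on chromosome 5, which is 57.8 kb from the gene (119670534 to 119684724). Tbx3 had 3 more sites without Pitx1, with scores of 21.1, 13.2 and 8.29, at 61.2, 95.3 and 11.04 kb outside the gene, and 2 Tbx5 summits beside Pitx1. The Tbx5 gene itself (119796514 to 119885220) had 2, a strong one inside the gene at position 119827538 with a score of 87.5 and a weak one 9.79 kb outside with a score of 1.75. The other 3 summits assigned to this gene had Pitx1 at most 1000 bp away.

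Most sites without Pitx1 lay inside genes, and 57.1% (55.4 to 58.7) lay inside and over 1 kb from any gene end. This share was 53.8% (52.3 to 55.3) for Tbx5 sites beside Pitx1 and 51.8% for the near-gene genome. Of the 3622, 61.3% (59.7 to 62.9) were inside a protein-coding gene, against 59.8% (58.3 to 61.3) of the Tbx5 sites beside Pitx1 and 54.1% of the near-gene genome. The median distance to the nearest end of any protein-coding gene was 27.3 kb (quartiles 8.32 and 63.1), against 31.9 kb beside Pitx1 and 24.6 kb for the near-gene genome. Within 1 kb of a gene end lay 268 sites, or 7.40% (6.57 to 8.30), which is 1.78 times the 4.15% of the near-gene genome. Beside Pitx1 this share was 11.499% (10.6 to 12.5), or 2.77 times. Distances of 5 to 20 kb held 23.4% (22.0 to 24.8) of sites without Pitx1 and 18.5% (17.4 to 19.7) of those beside it, against 27.6% of the near-gene genome. The intervals of the Tbx5 groups did not overlap in either class. The difference at gene ends held only for some definitions of a Pitx1 neighbour. With the shorter Pitx1 list the share within 1 kb of a gene end was 10.8% (10.03 to 11.7) without Pitx1 and 6.82% (5.84 to 7.91) beside it, which is the opposite order. When only a Pitx1 summit within 200 bp counted, the shares were 9.86% (9.04 to 10.7) and 9.24% (8.23 to 10.3). At 5 to 20 kb the order was the same under each of the 7 alternatives run. The intervals there overlapped at 200 bp, with the shorter list and for the higher-scoring Tbx5 summits, and were apart under the others. At 200 bp the shares were 21.7% (20.5 to 22.9) without Pitx1 and 19.2% (17.8 to 20.65) beside it. Sites near gene ends had scores like the rest, with a median of 6.40, against 7.02 inside genes and 6.40 outside.

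**Figure D2:**
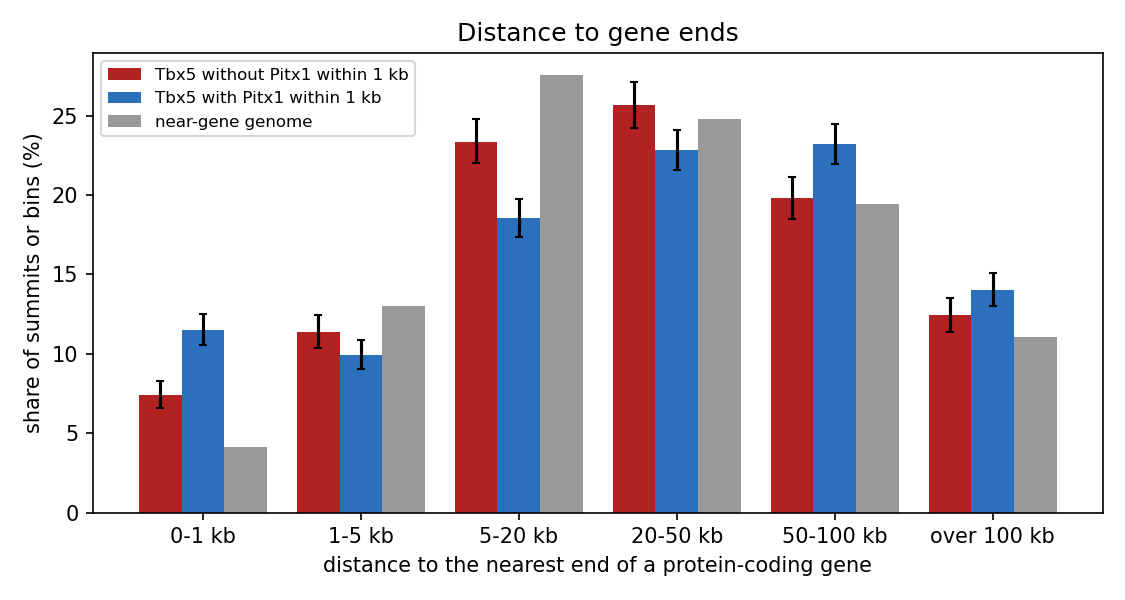
Share (vertical axis, %) of near-gene Tbx5 summits without and with Pitx1 within 1 kb, and of 1 kb bins of the near-gene genome, by distance to the nearest end of a protein-coding gene (horizontal axis). Whiskers are exact 95% intervals; within 1 kb the shares are 7.40%, 11.499% and 4.15% with the full Pitx1 list, and the order of the Tbx5 groups there turns with the shorter list and at 200 bp.

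Among sites near gene ends, starts were more often hit than far ends. Strand was at hand for the assigned gene of 2867 sites. Of these, 5.62% (4.80 to 6.52) were within 1 kb of the start of that gene and 1.92% (1.45 to 2.49) within 1 kb of its far end, and each class is 2.11% of the near-gene genome. Beside Pitx1 the shares were 9.77% (8.79 to 10.8) and 1.54% (1.15 to 2.01). The intervals of the Tbx5 groups were apart at starts and overlapped at far ends. With the shorter Pitx1 list the shares at starts turned to 8.98% (8.15 to 9.87) without Pitx1 and 5.31% (4.35 to 6.42) beside it. Within genes, the first of 5 equal stretches from the start held 22.4% (20.5 to 24.5) of the inside sites without Pitx1 and 25.1% (23.2 to 27.04) of those beside it, against 20.03% of the genome. These intervals overlapped, and the order turned with the shorter list (25.6% and 19.6%) and with limits of 200 bp (24.5% and 22.8%) and 500 bp (24.04% and 23.6%). Outside genes, 56.2% (53.2 to 59.2) of sites without Pitx1 lay before the start, against 50.4% (47.7 to 53.1) beside Pitx1 and 53.4% of the genome.

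**Figure D3:**
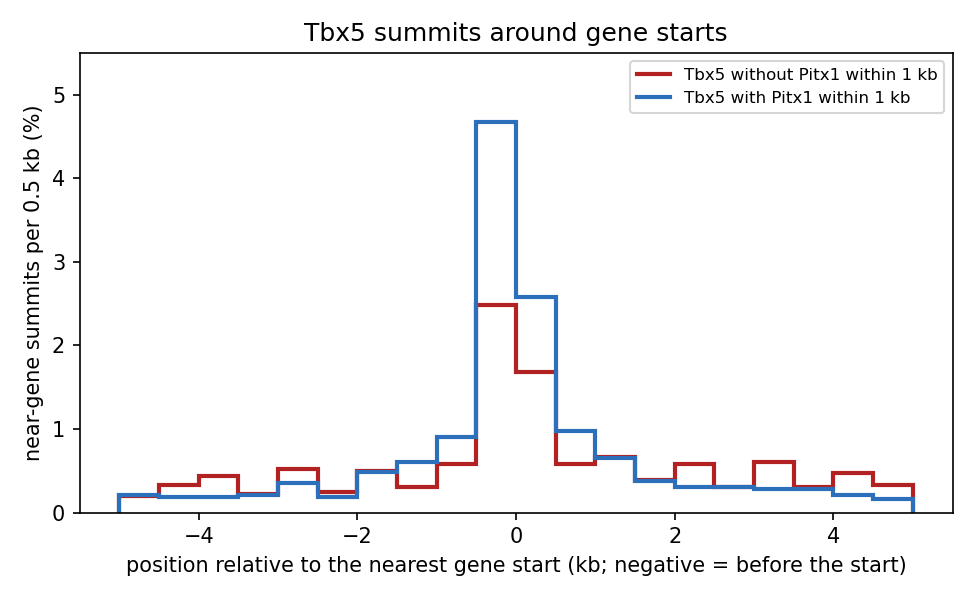
Near-gene Tbx5 summits per 500 bp bin (vertical axis, % of each group) by position relative to the nearest gene start with a promoter window (horizontal axis, kb, negative before the start). Both lines peak in the 500 bp before the start, at 2.48% without Pitx1 and 4.68% with Pitx1, for the full Pitx1 list and a limit of 1 kb.

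Among the sites within 1 kb of a gene end, Pcnp was followed by Panx2, which encodes a channel protein, with a score of 189 at 0.852 kb, and Atp9a, a lipid transport gene, with a score of 128 at 0.682 kb. A site with a score of 107 inside Zcwpw2 was the one at the start of Azi2, printed above, and it had a Pitx1 summit 2090 bp away. The rest of the 10 strongest were at Gm21976 (score 104), Dok4 (score 99.8), Cenps (score 80.3), Pcyt1a (score 77.9), Proser2 (score 75.6) and Rarres2 (score 73.2). At Gm21976 the nearest Pitx1 summit was 45423 bp away. Twist1, which encodes a factor of limb mesenchyme, had a site 38 bp after its start with a score of 9.62, and a Pitx1 summit lay 1083 bp from it, just past the threshold.

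Sites without Pitx1 were spread thinly over many genes. Each site was assigned to its nearest protein-coding gene, and 2581 of 21887 genes (11.8%) received at least 1. For Tbx5 summits beside Pitx1 this was 11.1% of genes. Of the 2581 genes, 1911 (74.0%) had exactly 1 site, 451 had 2, 127 had 3, 59 had 4 and 33 had 5 or more. Of the same genes, 1654 (64.1%) had no Tbx5 summit beside Pitx1, and 392 (15.2%) had no Pitx1 summit of any kind assigned. Since only 11.1% of all genes had a Tbx5 summit beside Pitx1, lacking one was more common over all genes than among these. For the 15.2% no share over all genes is given here. The nearest other site without Pitx1 was a median of 125 kb away. The domain of a gene is the sequence that would be assigned to it, and its median length was 148 kb for genes with a site and 45 kb for all genes. Across all 21887 genes the number of sites and the length of the domain had a Spearman rho of 0.339. Genes are not independent replicates, and rho is given as a description.

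The genes with the most sites were long, from 217 to 1998 kb for the first 15. Lrmda, on chromosome 14, had 11, with scores from 3.10 to 88.7, and a further 42 Tbx5 summits beside Pitx1. Its strongest, at position 22708483, was 348 kb from the nearer gene end and had a Pitx1 summit of score 2.03 at 1601 bp. Epha3, an ephrin receptor that guides axons and cells, had 8, of which the strongest (score 42.6) lay inside the gene at chromosome 16 position 63809972. Another 3 of its sites formed a group of 9.19 kb some 36.9 to 46.1 kb outside it. Macrod2 had 8 (highest score 48.8) and Gpc5, a cell surface proteoglycan gene, 8 (highest score 37.6).

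Foxp1, a forkhead factor gene, had 7 (highest score 25.5), Auts2 had 7 (highest score 21.1) and Tenm3, a teneurin adhesion gene, had 7 (highest score 21.1). Nfib, a transcription factor gene of chondrocytes and many other tissues, had 6 and none was weak. Its lowest score was 11.002 and its highest 72.1, at chromosome 4 position 82311198. Rarb, a retinoic acid receptor gene, had 6, of which 5 lay inside the gene, with scores of 46.8, 17.0, 7.64, 4.13 and 4.13, and 1 lay 14.9 kb outside with 4.67. Gmds, Dcc (a netrin receptor gene), Kcnma1 and St6galnac3 had 6 each. Of the 20 genes with 5, those with the strongest sites were Tenm4, with a score of 161, and Sox6, with a score of 156. These 15 genes held 102 sites, 2.82% of all, in domains of 417 to 2087 kb. Without Pitx1 were between 20.8% (Lrmda) and 75% (Nfib and Dcc) of their Tbx5 summits.

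**Figure D4:**
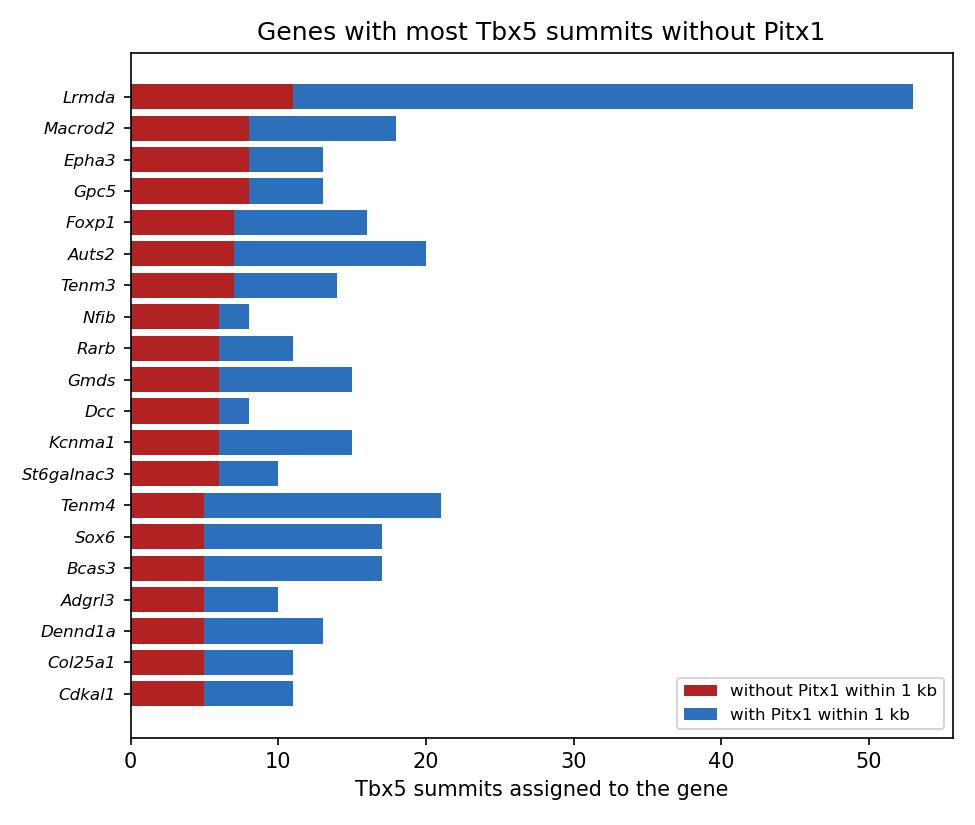
Number of Tbx5 summits assigned to each of the 20 genes with the most summits lacking Pitx1 within 1 kb (horizontal axis), split into those without and with Pitx1. Lrmda has 11 without and 42 with, and Nfib 6 without and 2 with.

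Relative to domain length, smaller genes stood first, and several of their sites were neighbours of each other. The near-gene genome held 0.190 sites per 100 kb. Among the 92 genes with 4 or more, Klhdc4 had 10.53 per 100 kb, from 4 sites in 4.65 kb inside the gene with scores of 3.10 to 7.64. Cmc1, a gene of mitochondrial complex assembly, had 4 per 100 kb, from 4 sites in 2.63 kb with scores of 2.61 to 5.81. Btbd35f8, of a multi-copy family on chromosome X, had 2.48, from 5 sites in 3.68 kb with scores of 3.10 to 5.81. No other of the 18 chains of 3 or more sites at most 10 kb apart had over 3 sites. Tbx3, with 2.35 per 100 kb, was unlike these, since its 4 sites reached a score of 223. The others among the 10 were the agouti gene a (3.01 per 100 kb), Lsm6 (2.63), Stt3b (2.33), Prdm6 (2.13), Shb (2.09) and Chst8 (2.02). Copies of a repeated family are hard to tell apart by reads, and no source at hand states how such reads were treated.

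Autosomes had similar densities, and the sex chromosomes stood apart. On the 19 autosomes there were between 1.68 (chromosome 7) and 2.62 (chromosome 16) sites per Mb of near-gene genome, and between 41.4% (chromosome 6) and 54.0% (chromosome 16) of near-gene Tbx5 summits had no Pitx1. Chromosome X had 15 near-gene Tbx5 summits, all without Pitx1, or 0.133 per Mb, and chromosome Y had 16, of which 14 were without. Their highest scores were 18.6 and 7.64. Few of the numbered Tbx5 peaks of these chromosomes are in the deposited list, 4.49% of the numbers spanned on X and 6.93% on Y, against 54.1% to 78.6% on the autosomes. Whether the missing peaks had a Pitx1 neighbour was not tested. The Pitx1 list was thin on X and Y as well. It had 5.92 near-gene summits per Mb on X and 1.68 on Y, against 19.7 (chromosome 7) to 29.9 (chromosome 11) on the autosomes. Of the 15 sites on X, 5 lay in the chain at Btbd35f8 and 3 in a chain at Srsx. Without X and Y the count was 3593.

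Among genes with 5 or more Tbx5 summits, 299 in all, the median share without Pitx1 was 37.5% (quartiles 20% and 50%). In 2 genes every one of the 5 Tbx5 summits was without Pitx1, namely Btbd35f8 and Snd1, a gene of RNA metabolism with scores of 2.61 to 27.2. In 20 genes none was. Meis2, a homeodomain gene of the proximal limb, had 9 Tbx5 summits, Gli2, a hedgehog effector, 8, Pbx3, a homeodomain partner of Meis proteins, 6, Boc, a hedgehog co-receptor, 5, Eya1 5 and Nr2f2 5, each with Pitx1 beside it. Msi2 had 8 of this kind, and Agmo, Ptprg and Unc5c had 7 each. The others were Arid5b, Dclk1, Spag17, Ror1 and Dync1i1 with 6 each and Sema5a, Hpse2, Plxna4, Lrig1 and Usp29 with 5 each.

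The 38 limb transcription factor genes had sites without Pitx1 in 20 cases (52.6%, against 11.8% of all genes), with 34 sites in all and a median of 1 per gene against 0 for all genes. Tbx5 summits beside Pitx1 were assigned to 28 of the 38 (73.7%, against 11.1% of all genes), 108 in all. Without Pitx1 were therefore 23.9% of their Tbx5 summits, against 45.7% over all genes. Per 100 kb of domain they had 0.505 sites without Pitx1 against 0.190 over all genes, and 1.61 beside Pitx1 against 0.225. The median domain of these genes was 166 kb, against 45 kb for all genes. After Tbx3 the strongest was at Lmx1b, which sets dorsal identity, with a score of 53.1 at 16.5 kb outside the gene and a Pitx1 summit of score 43.2 at 1624 bp.

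Alx1, a paired-type homeodomain gene, had a site with a score of 31.9 at 15.2 kb. Hes1, a Notch target, had 3 sites, the strongest with a score of 30.9 at 56.3 kb. Irx3, an Iroquois gene of the early limb bud, had 2, both of its Tbx5 summits, with a highest score of 30.0 at 17.4 kb. Lhx2, a LIM gene of outgrowth, had 2 with scores of 28.3 inside the gene and 8.95 at 7.79 kb. Meis1 had 4, the strongest with a score of 26.3 at 37.9 kb, and Sall1 had 1, its only Tbx5 summit, with a score of 26.3 at 20.6 kb. Hand2, a gene of posterior limb identity, had 1 with a score of 7.02, and Gli3 had 2 with scores of 6.40 and 2.15.

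Of the 28 limb signalling genes 9 (32.1%) had such sites, against 11.8% of all genes, with 17 sites in all. Of these 6 were the Rarb sites above. Per 100 kb of domain the list had 0.314 sites, against 0.190 over all genes, and its median domain was 153 kb. Hhip, a hedgehog antagonist, had one with a score of 63.0 at 1.88 kb outside the gene, 18082 bp from Pitx1, and a weak one inside with a score of 3.10. Spry1, an inhibitor of receptor tyrosine kinase signalling, had 1, its only Tbx5 summit, with a score of 46.8 and a Pitx1 summit 1042 bp away. Dusp6, a target and inhibitor of FGF signalling, had 2 with scores of 22.8 and 19.5, at 34.8 and 20.9 kb outside the gene. Tcf4, which in the gene table is a helix-loop-helix factor gene on chromosome 18 and not the Wnt effector Tcf7l2, had 1 with a score of 20.3. Single sites were at Lef1 (score 8.95), Bmp7 (5.23) and Aldh1a2 (3.60), and Bmpr1b had 2 (highest score 6.40). Fgf10, the limb target of Tbx5 named above, was not among the 9. All 3 Tbx5 summits assigned to Fgf10 had Pitx1 at most 1000 bp away. The median number of sites without Pitx1 per gene was 0, as for all genes. Tbx5 summits beside Pitx1 were assigned to 20 of the 28 genes (71.4%, against 11.1% of all genes), at 0.906 per 100 kb against 0.225. Without Pitx1 were 25.8% of the Tbx5 summits of this list, against 45.7% over all genes.

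Of the 22 cartilage genes 8 (36.4%) had such sites, against 11.8% of all genes, with 23 in all and a median of 0 per gene. Per 100 kb of domain they had 0.454, against 0.190 over all genes, and their median domain was 122.5 kb. Sox6, a partner of Sox9 in cartilage, had 5, and the strongest, with a score of 156 at chromosome 7 position 115984304 inside the gene, was 22980 bp from Pitx1. Its other 4 scored 11.002, 4.67, 3.10 and 3.10. Sox5 had 5, none above a score of 10.3. Trps1 had 4 (highest score 34.7) and Creb5 4 (highest score 8.95). Sox9, the main cartilage regulator, had 1, its only Tbx5 summit, with a score of 15.4 at 45.1 kb outside the gene. Tbx5 summits beside Pitx1 were assigned to 10 of the 22 genes (45.5%, against 11.1% of all genes), at 0.947 per 100 kb against 0.225. Without Pitx1 were 32.4% of the Tbx5 summits of this list, against 45.7% over all genes.

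The limb identity and Hox lists held 3 sites in all, and both lists had genes with short domains. Of 12 forelimb and hindlimb identity genes, Tbx5 alone (8.33%, against 11.8% of all genes) had sites without Pitx1, against 5 with Tbx5 summits beside Pitx1. Of 20 Hoxa and Hoxd genes, Hoxa9 alone (5%) had one, with a score of 3.60, against 10 with Tbx5 summits beside Pitx1. In those 20 genes 1 Tbx5 summit was without Pitx1 and 19 were beside it. The median domain was 47 kb for the identity genes and 8 kb for the Hox genes, against 45 kb for all genes. Of the identity genes, Hoxc5, Hoxc6, Hoxc9, Hoxc10, Hoxc11 and Hoxc12 had domains of 5 to 17 kb. Per 100 kb of domain the lists had 0.210 and 0.300 sites, against 0.190 over all genes. Beside Pitx1 they had 1.26 and 5.71 Tbx5 summits per 100 kb, against 0.225 over all genes.

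**Figure D5:**
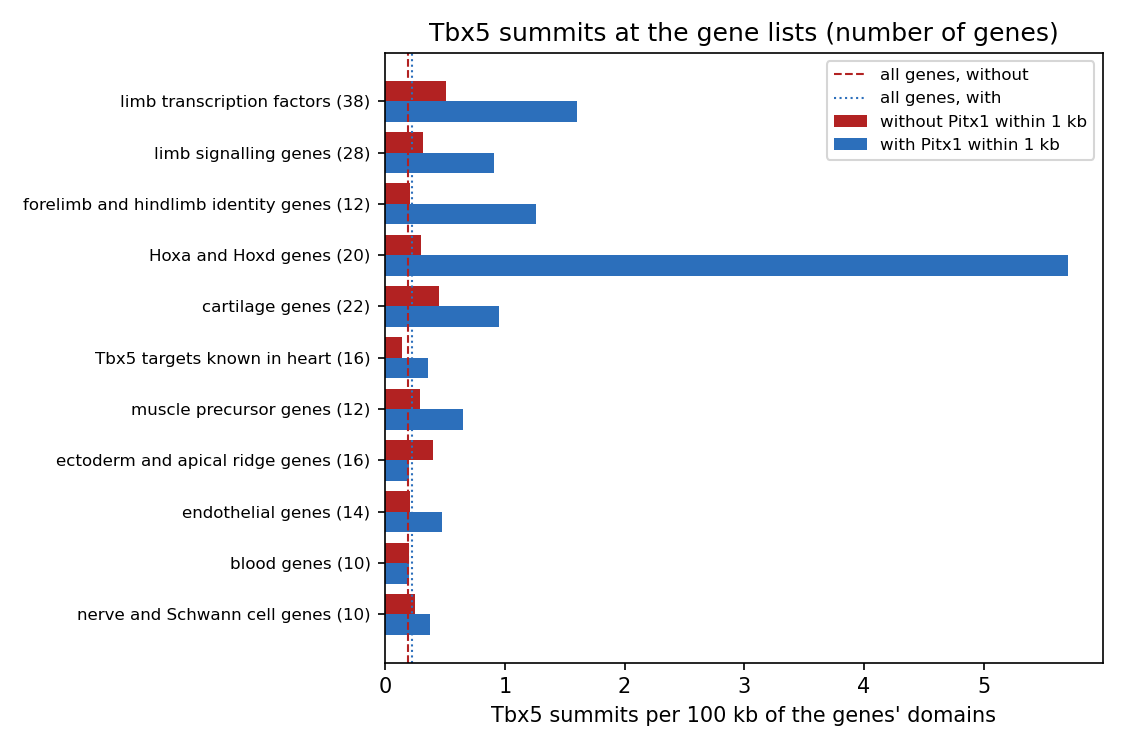
Tbx5 summits per 100 kb of the domains of each gene list (horizontal axis), without and with Pitx1 within 1 kb; numbers of genes are in brackets and vertical lines give the values over all genes (0.190 and 0.225). Limb transcription factors have 0.505 without and 1.61 with, from 34 and 108 summits. Ectoderm genes have 0.402 and 0.201, from only 6 and 3 summits.

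Among genes of the other cell types a limb bud holds, and heart targets of Tbx5, 17 of 77 (22.1%) had such sites, against 11.8% of all genes and 32.5% of the genes of the 5 limb lists. Per 100 kb of domain the values were 0.235, 0.190 and 0.416. Tbx5 summits beside Pitx1 were assigned to 31.2%, 11.1% and 60.8% of these genes, in the same order. Per 100 kb they numbered 0.396, 0.225 and 1.28. The values for single lists that follow are again for sites without Pitx1. Ectoderm genes had 0.402 per 100 kb, muscle genes 0.295, nerve genes 0.251, endothelial genes 0.211, blood genes 0.197 and heart targets 0.142. Of 16 genes known as Tbx5 targets in heart 3 (18.8%) had sites. Gata4, a heart and endoderm factor gene, had 2 inside it with scores of 52.0 and 8.29, and Mef2c had 1 with a score of 7.64. Of 16 ectoderm and apical ridge genes 4 (25%) had 6 sites, and 3 had 1 Tbx5 summit each beside Pitx1. Trp63, the master regulator of epidermis, had 2 (highest score 30.9, 74955 bp from Pitx1) and Fgf9 2 (highest 12.4), and neither had a Tbx5 summit beside Pitx1. Of 12 muscle precursor genes 3 (25%) had 5 sites, 3 of them at Pax3 with a highest score of 4.13. Of 14 endothelial genes 4 (28.6%) had 1 site each, the strongest at Flt1 with a score of 13.9. Of 10 blood genes 2 (20%) had 1 site each, with a score of 12.4 at Runx1, and of 10 nerve genes 2 (20%) had 1 each, at Elavl4 (10.3) and Tubb3 (2.61). All of these lists had a median of 0 per gene. The cells of the bud in which Tbx5 occupied a site are not known from whole tissue.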

How the data were processed

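Summit positions of 1 Tbx5 and 1 Pitx1 sample were used, of 18 samples in the series; the others are not analysed here. Software named, without roles, per the submitters' processing notes: MACS2 2.1.1.20160309, HOMER, Bowtie2 2.2.6 and Bowtie 1.1.2, with build mm10. Deposited scores were taken as −log10 of the q-value, the scale of MACS2 summit files. Depth, control and filtering are not stated. A RefSeq gene table (GRCm38.p6) gave 21887 protein-coding genes, and promoter windows gave starts and strand for 17492. The near-gene genome (1909 Mb) was measured in 1000 bp bins. Distances were computed with numpy 2.4.6 and pandas 2.3.3 and checked on simulated sites, and intervals with scipy 1.17.1. Named were the 15 genes with most sites, the 15 strongest sites, the 10 densest genes with at least 4 sites, the 10 strongest sites at gene ends, genes with at least 5 Tbx5 summits all or none of which lacked Pitx1, and genes of 11 lists, all matched by symbol; other names were chosen after their values were seen. Members and lists were chosen with earlier results of these data known. Differences between groups under other settings were added after seeing the data. Alternatives varied the distances, the Pitx1 list, the score minimum and the gene assignment. Some list genes are not reported here by name.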

Additional observations from a re-analysis of the deposited data

How the results depend on the processing

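On recomputation 65 values were classed as the same, 29 as moved and 7 as changed in sign. The first class is broad and is not a measure of stability. It includes 4877 sites at 200 bp in place of 3622, and 3463 genes with the shorter Pitx1 list in place of 2581. The median score stayed below that of Tbx5 sites beside Pitx1 under every setting tried. With the shorter Pitx1 list 5529 sites qualified, with a median score of 7.64, 10.8% within 1 kb of a gene end, and 59 genes of the limb lists and 30 of the other lists in place of 39 and 17. With the higher-scoring Tbx5 summits alone there were 1498 sites with a median of 15.4, in 1226 genes, 7 of them in the other lists; fewer summits enter by construction. Counting Pitx1 as near within 200 bp gave 9.86% at gene ends and 60 limb genes, and within 500 bp 9.06% at gene ends. Gene distances of 20 kb and 50 kb gave 77.3% and 67.7% inside genes, and 20 kb gave 9.33% at ends. Ends within 5 kb held 18.8%. Assigning each site to every gene within 100 kb gave 7014 genes, 66 in the limb lists and 30 in the others. Differences between sites without and beside Pitx1 were recomputed in percentage points under 7 alternatives chosen after seeing the data. Within 1 kb of a gene end the difference of -4.10 became 4.01 with the shorter list, 0.622 at 200 bp, -1.17 at 500 bp and -2.06 for the higher-scoring summits. At gene starts -4.16 became 3.67 with the shorter list, -0.310 at 200 bp, -1.94 at 500 bp and -1.76 for the higher-scoring summits. At far ends 0.383 became -0.035 with the shorter list. In the first of 5 stretches of the gene -2.65 became 5.98 with the shorter list, 1.70 at 200 bp and 0.401 at 500 bp. At 5 to 20 kb from an end 4.83 became 2.49 at 200 bp and 2.003 with the shorter list. Before the start 5.83 became 1.74 with genes within 20 kb. For scores of at least 100, -3.61 became -4.47 at 200 bp and -5.03 for the higher-scoring summits. The cause was not tested. Read depth is unknown and each factor has 1 sample, so no setting gives a replicate error. No alternative was run for the share of windows with the T-box core. No paired analysis was possible because each factor has 1 sample and no result comes from a test.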
